A study of Mus musculus with 7 samples.

Results

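The 10 genes described here, Pecam1, Cdh5, Kdr, Flt1, Tek, Tie1, Esam, Emcn, Eng and Sox17, are used as markers of the endothelial cells that line blood vessels. They were chosen by name, as the rows of the RefSeq gene table that carry these symbols, and are 10 of 24739 genes in that table. RNA was sequenced from whole mouse testes at embryonic day 14.5, with 1 pair of testes from 1 embryo in each library. The 3 libraries of the wild-type group and the 4 libraries of the mutant group share a C57BL/6 background. Mutant embryos were homozygous for the Glis3 zf5 allele, in which part of Glis3, including exon 4, is deleted in every cell of the animal, so that the protein cannot bind DNA. The allele is global, so a difference between the groups cannot be placed in any 1 cell type. The question the comparison addresses is whether endothelial transcripts differed in the mutant testis at about the stage when its germ cells begin to be lost.

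Blood vessels enter the mouse testis from the neighbouring mesonephros while the testis cords form, and a coelomic artery is a hallmark of the male fetal gonad. Endothelial cells respond to vascular endothelial growth factor (VEGF) and to angiopoietins through receptor tyrosine kinases, adhere to each other through VE-cadherin and other junction proteins, and take on arterial or venous character under Notch signalling and transcription factors such as SOX17. Germ cells of the fetal gonad also carry PECAM1, so that this marker is not particular to vessels in this organ.

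None of the 10 endothelial genes differed between the genotypes past the threshold, and for each of them the wild-type and mutant libraries overlapped. On the scale of log2(FPKM + 0.5), where FPKM is the number of fragments per kilobase of transcript scaled to the depth of the library, the differences (mutant minus wild-type) ran from -0.14 for Kdr to 0.09 for Cdh5. Of the 10 genes, 5 were above 0 and 5 below, and their median difference was -0.0021, beside 0.0084 for all 13988 genes tested. By limma with Benjamini-Hochberg adjustment over all genes tested, adjusted p ran from 0.455 to 0.95, and no member had an unadjusted p under 0.05. The background was low for calls after adjustment and not for unadjusted ones. Among all genes tested, 1 passed the threshold (0.00715%), whereas 17.0% had an unadjusted p under 0.05. The 95% intervals of the members together reached from -0.37 (Flt1) to 0.37 (Tie1), which is 0.776-fold to 1.29-fold on the same scale. Larger changes lay outside the interval of every member. Single intervals differed in width, from -0.19 to 0.15 for Tek to -0.32 to 0.37 for Tie1. Changes inside a gene's own interval could not be resolved. In whole-organ RNA, fewer cells of a type and less RNA per cell cannot be told apart.

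Before these values are read, the targeted gene was examined in each library. The wild-type labels carried Glis3 levels of 7.63, 6.89 and 2.91 FPKM (libraries 1 to 3), and mutants 1 to 4 had 3.86, 3.26, 2.90 and 2.66 FPKM. The library labelled wild-type 3 thus lay inside the range of the mutants, and Glis3 differed by -0.69 ± 0.28 (log2, SE, n = 3 and n = 4; adjusted p = 0.268, limma). FPKM counts the whole gene, of which the allele removes only a part, so this level is an incomplete check of the labels. The summed germ cell markers of the library labelled wild-type 3 (528 FPKM) also lay within the mutant range of 435 to 576 FPKM. The other wild-type libraries had 1240 and 849 FPKM. Single markers were divided. In the library labelled wild-type 3, Ddx4 (53.1 FPKM), Dazl (167 FPKM) and Sall4 (3.28 FPKM) lay above every mutant. Pou5f1 (54.1 FPKM) and Dppa3 (243 FPKM) lay within the mutant range. Groups did not overlap for 3 of 6 markers, lower in mutants, beside 7.59% of all genes. The gene that passed the threshold with all libraries, Cpsf4l, is no endothelial gene and was named after its values were seen. Its 7.5 FPKM in the library labelled wild-type 3 stood with 13.7 and 9.34 FPKM in the other wild-type libraries, against 0.568 to 1.06 FPKM in the mutants (-2.91 ± 0.21, adjusted p = 0.00547, limma). Without the library labelled wild-type 3, Glis3 differed by -1.09 (adjusted p = 0.00992, limma). That library was singled out by its low Glis3 level, so this Glis3 call is no separate check of the labels. In the same fit, 722 of 14019 genes passed the threshold (5.15%, with 162 higher and 560 lower in mutants), where 1 had passed with the library kept. Even so, 0 of the 10 endothelial genes passed without it. At an unadjusted p under 0.05 there was 1 of 10, beside 23.6% of all genes in that fit: Emcn, at 0.22 (adjusted p = 0.184, limma).

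**Figure D1:**
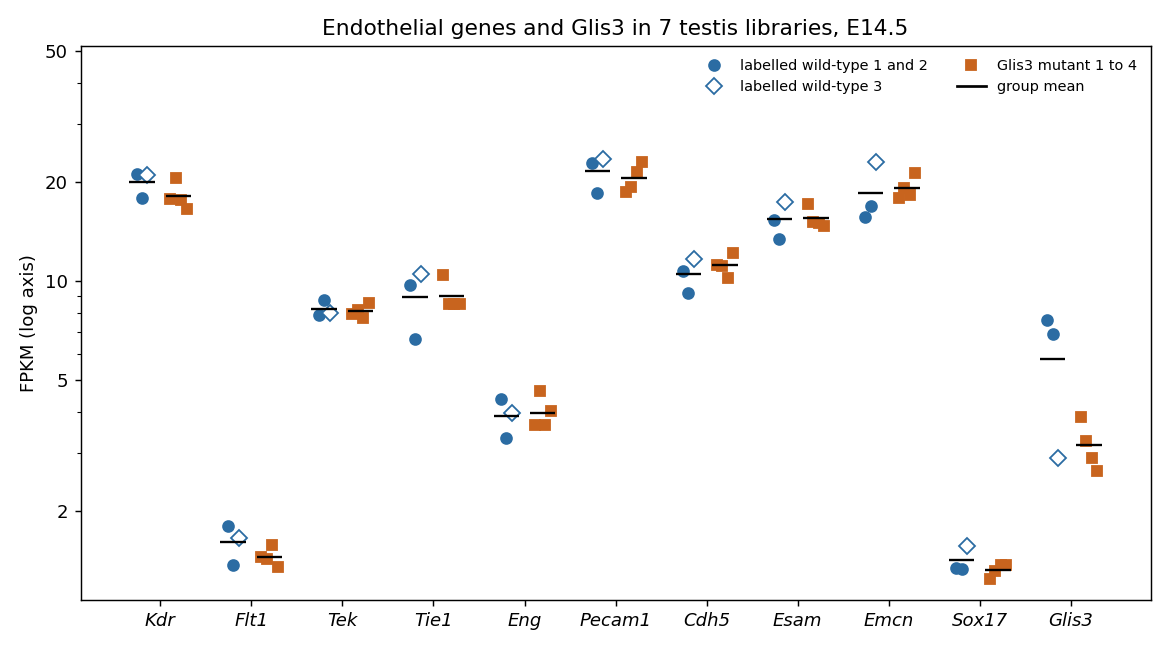
FPKM (log axis) of the 10 endothelial genes and Glis3 in each library; circles are the libraries labelled wild-type 1 and 2, open diamonds the library labelled wild-type 3, squares the 4 mutants and bars the group means. The groups overlap for every endothelial gene, and for Glis3 the library labelled wild-type 3 (2.91 FPKM) sits among the mutants.

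Kdr encodes VEGF receptor 2, the main signalling receptor for VEGF-A. It lies on chromosome 5 (mm10, 75933270 to 75978428, minus strand) and has 29 exon blocks in the GENCODE annotation. Wild-type libraries 1 to 3 gave Kdr levels of 21.2, 17.9 and 21.0 FPKM, and mutants 1 to 4 gave 17.7, 20.5, 17.6 and 16.6 FPKM. Mutant 2 and the library labelled wild-type 2 exchanged places between otherwise higher wild-type and lower mutant values, and the groups overlapped. The difference was -0.14 ± 0.09 (log2, SE; 95% interval -0.35 to 0.07; adjusted p = 0.455, limma), the largest of the 10 in size. An exact two-sided permutation test over all 35 ways to place the 7 labels gave p = 0.114 for Kdr, where the smallest p this test could give was 0.0571, so that no gene could pass 0.05 by it. Kdr reached an unadjusted p under 0.05 when 1 library was left out in 2 cases, with 1 of 10 members each time. Without the library labelled wild-type 2 it differed by -0.22 (adjusted p = 0.273, limma; 17.7% of all genes had an unadjusted p under 0.05 in that fit), and without mutant 2 by -0.20 (adjusted p = 0.388, limma; 12.7% of all genes).

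Flt1, on the same chromosome (147562196 to 147725988, minus strand), encodes VEGF receptor 1, which binds VEGF-A tightly and, as a soluble form, withholds it from VEGF receptor 2. Flt1 was low, at 1.8, 1.38 and 1.66 FPKM in wild-type samples and 1.45, 1.43, 1.58 and 1.36 FPKM in mutants 1 to 4. All 4 mutants lay below the libraries labelled wild-type 1 and 3, and 3 of 4 lay above the library labelled wild-type 2. The difference of Flt1 was -0.11 ± 0.11 (adjusted p = 0.654, limma). Per length of transcript, Kdr exceeded Flt1 by 11.1 to 14.3 times over the 7 libraries, with a mean ratio of 12.5 ± 0.656 (SD, n = 3) in wild-type and 12.5 ± 1.35 (SD, n = 4) in mutant libraries.

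Tek encodes TIE2, the receptor of the angiopoietins (chromosome 4, 94739289 to 94874976, plus strand). It was the steadiest of the 10 genes, with 7.88, 8.79 and 8.01 FPKM in wild-type samples and 7.95, 8.17, 7.74 and 8.55 FPKM in mutants 1 to 4. The wild-type and mutant values interleaved, and the coefficient of variation over all 7 libraries was 4.66%. The difference of Tek was -0.02 ± 0.07 (95% interval -0.19 to 0.15; adjusted p = 0.915, limma). Tie1, whose product pairs with TIE2 and modulates its signalling, lies on the same chromosome (118471191 to 118489849, minus strand).

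Tie1 was the most variable of the 10 genes (coefficient of variation 15.0%). It measured 9.74, 6.66 and 10.5 FPKM in wild-type samples and 10.4, 8.54, 8.51 and 8.49 FPKM in mutants 1 to 4. The library labelled wild-type 2 was lowest of all 7 and the library labelled wild-type 3 highest, so that the wild-type group enclosed all of the mutants. The difference of Tie1 was 0.02 ± 0.15 (95% interval -0.32 to 0.37; adjusted p = 0.95, limma). Its ratio to Tek ran from 0.758 in the library labelled wild-type 2 to 1.31 in the library labelled wild-type 3 and in mutant 1.

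Eng encodes endoglin, a co-receptor for BMP9 and TGF-beta ligands on endothelium (chromosome 2, 32646595 to 32682669, plus strand). Eng measured 4.39, 3.34 and 3.97 FPKM in wild-type samples and 3.65, 4.64, 3.67 and 4.02 FPKM in mutants 1 to 4. Mutant 2 was highest and the library labelled wild-type 2 lowest, and the groups overlapped. The difference of Eng was 0.03 ± 0.12 (adjusted p = 0.915, limma).

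Pecam1, on chromosome 11 (106654213 to 106715281, minus strand), encodes the adhesion molecule CD31 and had the highest mean level of the 10 genes. It measured 22.8, 18.5 and 23.5 FPKM in wild-type samples and 18.6, 19.3, 21.5 and 23.0 FPKM in mutants 1 to 4. All mutants fell within the wild-type range. The difference of Pecam1 was -0.06 ± 0.11 (95% interval -0.30 to 0.18; adjusted p = 0.79, limma). Of 6 germ cell markers tested, 4 were lower in mutants at an unadjusted p under 0.05, beside 8.79% of all genes, and 0 passed after adjustment; their median difference was -0.81. Their part in the level of Pecam1 was not tested.

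Cdh5 encodes VE-cadherin, the cadherin of endothelial junctions (chromosome 8). It measured 10.7, 9.20 and 11.7 FPKM in wild-type samples and 11.2, 11.1, 10.2 and 12.2 FPKM in mutants 1 to 4. The highest value was in mutant 4 and the lowest in the library labelled wild-type 2, with the other values mixed. The difference of Cdh5 was 0.09 ± 0.10 (95% interval -0.14 to 0.31; adjusted p = 0.686, limma). The ratio of Kdr to Cdh5 was 1.91 ± 0.0946 (SD, n = 3) in wild-type and 1.63 ± 0.206 (SD, n = 4) in mutant libraries, and mutant 2, at 1.84, lay above the library labelled wild-type 3, at 1.8.

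Esam encodes another adhesion molecule of endothelial tight junctions (chromosome 9, 37528089 to 37538319, plus strand). It measured 15.3, 13.4 and 17.4 FPKM in wild-type samples and 17.1, 15.1, 15.0 and 14.7 FPKM in mutants 1 to 4. The wild-type range again enclosed the mutants, with a difference of 0.02 ± 0.10 (adjusted p = 0.948, limma).

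Emcn encodes endomucin, a sialomucin of capillary and venous endothelium (chromosome 3, 137341078 to 137431069, plus strand). It measured 15.7, 16.9 and 23.0 FPKM in wild-type samples and 17.9, 19.1, 18.3 and 21.3 FPKM in mutants 1 to 4. The library labelled wild-type 3 was above all mutants and the libraries labelled wild-type 1 and 2 below them. With all libraries the difference of Emcn was 0.06 ± 0.13 (adjusted p = 0.841, limma). Removal of the library labelled wild-type 3 raised it to 0.22, and removal of the library labelled wild-type 1 turned it to -0.05.

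Sox17 encodes a SOXF transcription factor of arterial endothelium (chromosome 1, 4490928 to 4497354, minus strand). It was the lowest of the 10 genes, at 1.35, 1.34 and 1.57 FPKM in wild-type samples and 1.25, 1.32, 1.38 and 1.38 FPKM in mutants 1 to 4. The libraries labelled wild-type 1 and 2 lay among the mutants, and the library labelled wild-type 3 was above them. The difference of Sox17 was -0.07 ± 0.10 (adjusted p = 0.776, limma). Over all 10 genes, exact permutation p ran from 0.114 to 1.0.

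**Figure D2:**
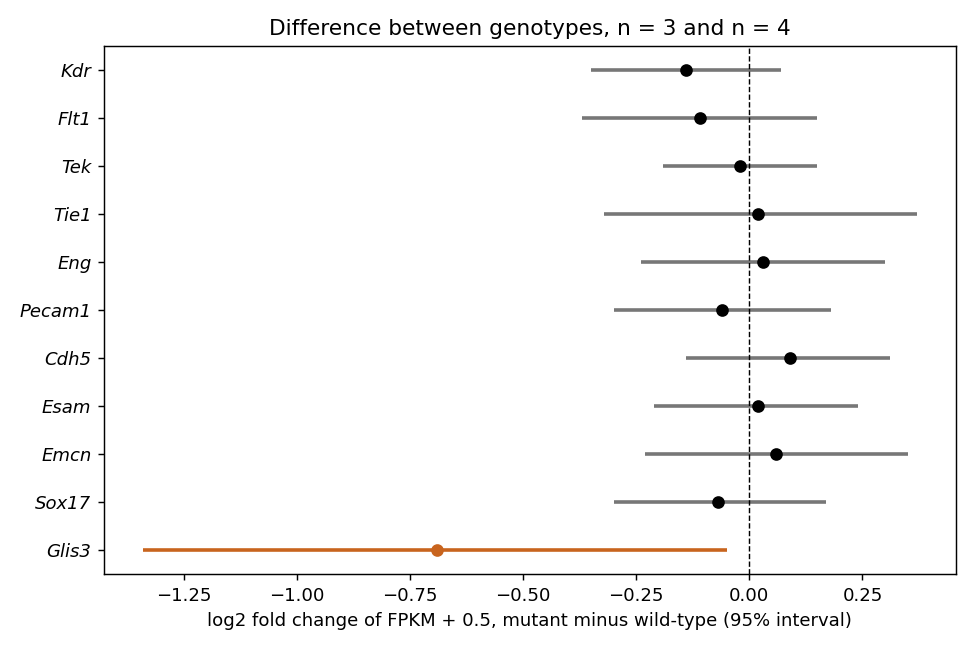
Log2 fold change of FPKM + 0.5 (mutant minus wild-type, horizontal axis) for the 10 endothelial genes and Glis3; points are the limma estimates and bars the 95% intervals. All 10 endothelial intervals include 0, and the estimates lie between -0.14 and 0.09, whereas Glis3 was at -0.69.

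Levels can be set against each other per length of transcript. From high to low, mean FPKM gave the order Pecam1, Kdr, Emcn, Esam, Cdh5, Tie1, Tek, Eng, Flt1 and Sox17. Emcn over Esam, Esam over Cdh5, Cdh5 over Tie1, Tek over Eng and Eng over Flt1 held in 7 of 7 libraries. The other neighbours did not differ beyond their spread. Pecam1 exceeded Kdr in 6 of 7 libraries, by 0.15 ± 0.18 (log2 ratio, SD), and Flt1 exceeded Sox17 in 6 of 7, by 0.15 ± 0.15. Tie1 exceeded Tek in 5 of 7, and Kdr exceeded Emcn in only 3 of 7, with a log2 ratio of 0.01 ± 0.24. The largest steps were from Tek to Eng (1.05 ± 0.19) and from Eng to Flt1 (1.38 ± 0.18), so that Eng, Flt1 and Sox17 formed the low end.

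Across libraries, the summed level of the 10 genes was 110.2 ± 12.3 FPKM (SD, n = 3) in wild-type and 108.4 ± 2.59 FPKM (SD, n = 4) in mutant libraries. The mutants were close to each other, from 105.6 to 111.6 FPKM, whereas the library labelled wild-type 2 was lowest of all at 97.5 FPKM and the library labelled wild-type 3 highest at 122.1 FPKM. FPKM summed over all genes also differed, from 694243 in the library labelled wild-type 1 to 1018678 in mutant 3. Levels were not rescaled to that total, so the order of libraries holds for FPKM as the authors scaled it. Counts for the libraries labelled wild-type 2 and 3 follow. In the former 5 of 10 members had their lowest value, beside 23.3% of all genes tested, and 1 lay above its own mean, beside 42.6%. In the latter 5 of 10 members had their highest value, beside 11.0% of all genes tested, and 9 lay above their own mean, beside 47.6%. Whether the 10 genes vary together more than other genes was not tested, and Tek went the other way, with its highest value in the library labelled wild-type 2. On the log2 scale the mean of the 10 centred genes ran over a span of 0.28 among libraries, against a difference between genotypes of -0.02.

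**Figure D3:**
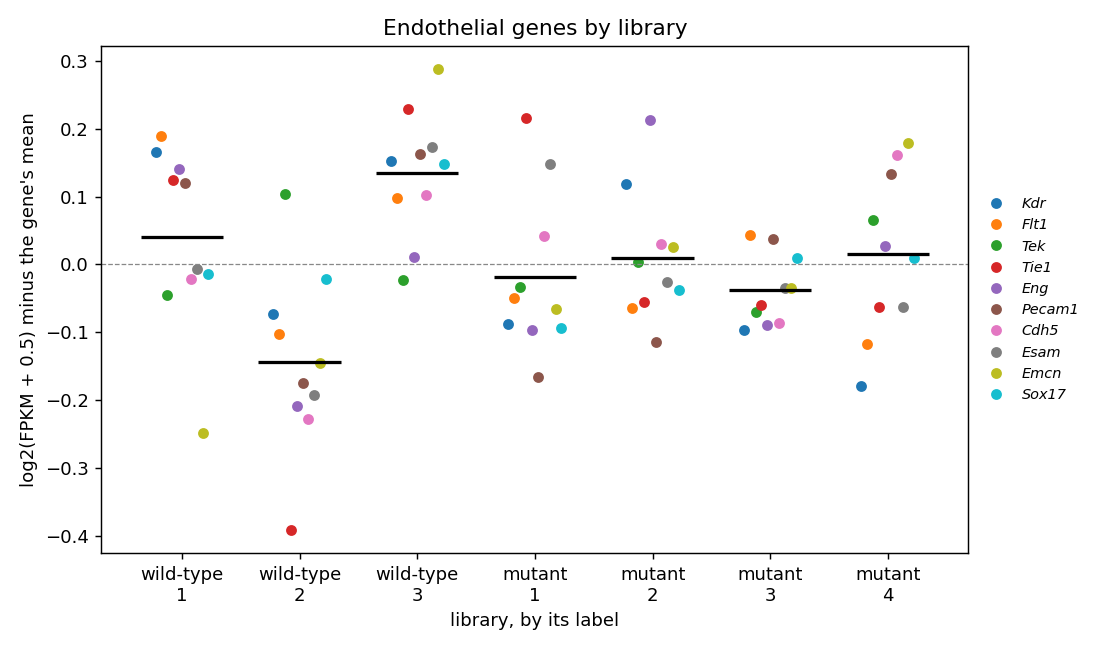
Each endothelial gene's log2(FPKM + 0.5) minus its own mean over 7 libraries (vertical axis), by library; points are genes and bars the mean of the 10. The libraries labelled wild-type 2 (-0.14) and wild-type 3 (0.13) lie farthest from 0, and the 4 mutants lie between -0.04 and 0.02.

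Genes outside the 10 were ranked by how near their centred profile lay to this mean profile, as a root mean square distance over the 7 libraries among the 11539 genes whose mean reached 2 FPKM. The nearest were Susd1 (distance 0.0154), Cipc (0.0243), Txnl4a (0.0249), Mfsd7b (0.0270), Gab1 (0.0272), Rfxap (0.03), Sssca1 (0.0305) and Rnf4 (0.0336). The median distance over genes was 0.141, and the profile itself had a root mean square of only 0.0773, so that a nearly flat gene lay near it as well. None of the 8 is in the vascular lists used here.

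A readout that does not use the exons of these genes came from the reads that the authors counted on LINE, SINE and LTR elements. The libraries were depleted of ribosomal RNA without selection of poly-A RNA, so unspliced transcripts are present in them. Reads on elements that lie inside the span of a single gene and outside its annotated exons were summed per gene. The element reads totalled 3454317 to 4670830 per library, and the 10 genes held between 1 such element with reads (Sox17) and 125 (Tek).

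In these intronic reads, 7 of the 10 endothelial genes had a mean of at least 10 reads per library and were tested. Tie1, Esam and Sox17 were below that level, with 69, 60 and 22 reads in all 7 libraries together. None of the 7 passed the threshold in the quasi-likelihood test of edgeR or in DESeq2, and none had an unadjusted p under 0.05 in edgeR, where among 11111 genes 28 passed (0.252%) and 11.1% had an unadjusted p under 0.05. The groups overlapped for all 7, and the median difference was -0.0048.

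Emcn had the most intronic reads (1246 in all). In CPM (a gene's intronic reads scaled to the library's TMM-adjusted total of such reads), it measured 88.6, 86.1 and 98.6 in wild-type samples and 86.3, 94.5, 84.9 and 97.7 in mutants 1 to 4. These Emcn values spanned nearly the same range in both groups (edgeR adjusted p = 0.992). Tek, with 1085 reads, measured 92.2, 66.9 and 72.5 CPM in wild-type samples and 90.1, 79.6, 65.1 and 83.8 in mutants 1 to 4, a log2 difference of 0.04 (edgeR adjusted p = 0.95).

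The largest intronic difference was that of Flt1. It measured 37.8, 21.4 and 35.8 CPM in wild-type samples and 23.3, 26.9, 25.6 and 25.8 in mutants 1 to 4. As in its FPKM values, the 4 mutants lay below the libraries labelled wild-type 1 and 3, and here all 4 lay above the library labelled wild-type 2. The log2 difference of Flt1 introns was -0.33 (edgeR adjusted p = 0.569). It was -0.20 for Pecam1, 0.14 for Cdh5, 0.07 for Kdr and -0.04 for Eng, with edgeR adjusted p from 0.803 to 0.97. Without the library labelled wild-type 2, 2 of the 7 had an unadjusted p under 0.05, beside 11.6% of all genes in that fit: Flt1 at -0.54 (adjusted p = 0.268) and Pecam1 at -0.44 (adjusted p = 0.424, edgeR). By the same measure the introns of Glis3 did differ, with 358, 294 and 213 CPM in wild-type samples against 177, 167, 180 and 124 in the mutants (-0.83, edgeR adjusted p = 0.0334), and the library labelled wild-type 3 was the lowest of its group but above every mutant. This Glis3 call was lost in 9 of 14 alternatives, among them the removal of wild-type 1, of wild-type 2 or of any mutant. In those 9 the difference stayed between -0.89 and -0.64, with edgeR adjusted p from 0.0535 to 0.174. The allele also removes parts of the introns flanking the deleted exon, so elements lying there are absent from the mutant genome. Their share of the Glis3 difference was not tested.

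**Figure D4:**
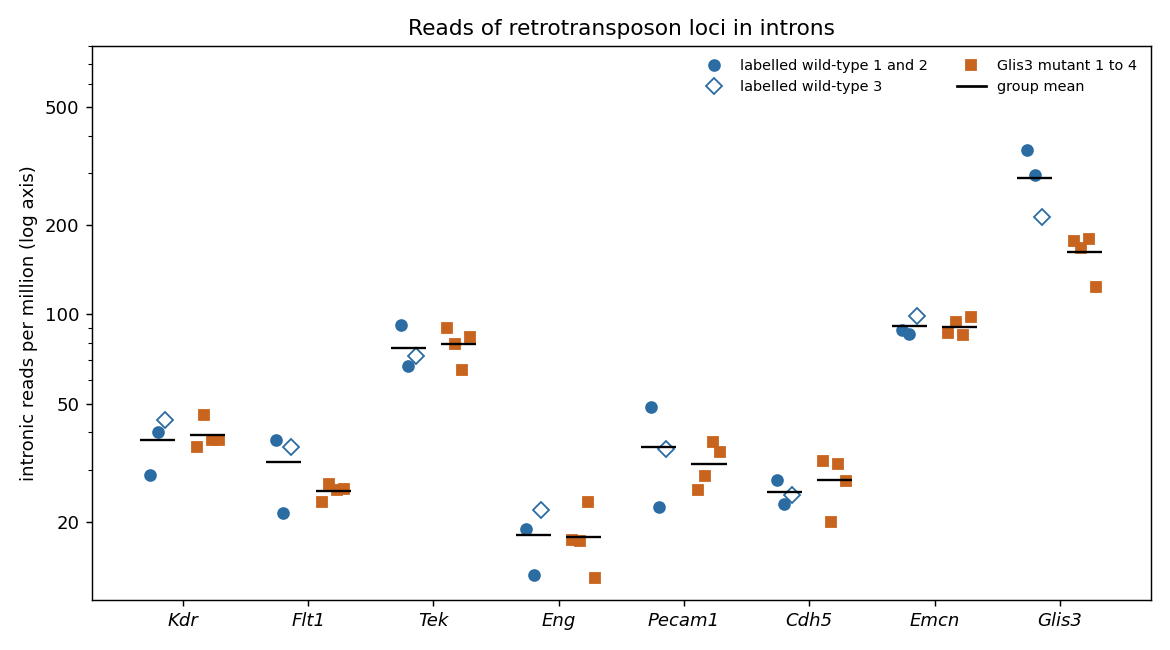
Intronic element reads (CPM, log axis) of the 7 endothelial genes tested and Glis3 in each library, with symbols as in the plot of FPKM. The wild-type and mutant libraries overlap for all 7 endothelial genes, and for Glis3 the 4 mutants (124 to 180) lie below the 3 wild-type libraries (213 to 358).

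Promoter sequence was taken from RefSeq on the GRCm38.p6 assembly as the 250 bases before the gene start, which matched 6 of the 10 genes (Emcn, Eng, Flt1, Kdr, Tek and Tie1). GGAA, the core bound by ETS factors such as ERG and FLI1 that act in endothelium, was searched on both strands, as was TGGGGGG, the G-rich core that GLIS proteins bind. GGAA was present 2 to 7 times in each of the 6 windows, but 93.4% of 27025 promoters held it. TGGGGGG was present in 2 of the 6, those of Eng and Kdr, once each, and in 7.46% of all promoters. The window of Eng, chr2:32646345-32646594 on the plus strand, is shown because it held both letter strings and is clear of annotated exons. Capitals mark GGAA or its reverse complement TTCC. A match of letters describes the window and is no evidence of binding.

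Eng: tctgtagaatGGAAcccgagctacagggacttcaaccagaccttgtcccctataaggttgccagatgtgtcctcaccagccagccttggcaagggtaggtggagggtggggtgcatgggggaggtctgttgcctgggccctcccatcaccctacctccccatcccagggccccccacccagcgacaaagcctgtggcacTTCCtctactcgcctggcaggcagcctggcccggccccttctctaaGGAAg

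The wider vascular programme was examined in 6 lists that together hold 71 genes, of which 65 passed the filter of a mean of 0.5 FPKM. No list gene passed the threshold (limma, adjusted p from 0.18 to 0.991). At an unadjusted p under 0.05 there were 5 of 65 (7.69%), beside 17.0% of all genes tested. Of these, 2 were higher and 3 lower in mutants, beside 8.21% and 8.79% of all genes. Groups that did not overlap were found for 1 list gene higher in mutants and 3 lower, beside 7.31% and 7.59% of all genes. The median difference of the 65 genes was 0.04. These shares were under the background.

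Among 11 ligands and receptors of the VEGF and angiopoietin system, 0 had an unadjusted p under 0.05, with differences from -0.22 to 0.24. The highest levels in that list were those of Vegfa, the principal angiogenic ligand, and of Nrp1, a VEGF co-receptor. Vegfa measured 20.9 ± 5.01 FPKM (SD, n = 3) in wild-type libraries, with a lowest value of 15.2, and 18.5 ± 1.36 FPKM (SD, n = 4) in mutants. Nrp1 measured 17.0, 16.6 and 17.9 against 18.5, 19.8, 16.3 and 18.5. In both genes the groups overlapped, and Vegfa, like 5 of the 10 endothelial genes, was lowest in the library labelled wild-type 2.

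In the TGF-beta and BMP list 7 of 9 genes were tested (Gdf2 and Bmp10, the circulating ligands of endothelium, were under the filter) and 0 had an unadjusted p under 0.05. Its members with the highest level were Id3 and Id1, inhibitors of basic helix-loop-helix factors and targets of BMP signalling in many cell types. Id3 measured 149, 146 and 239 FPKM in wild-type samples and 190, 204, 196 and 198 in the mutants. Id1 measured 71.2, 70.2 and 100 against 97.2, 93.5, 86.6 and 92.6. For both genes the libraries labelled wild-type 1 and 2 were lowest and the library labelled wild-type 3 highest, so that the call depended on that library. Without it, Id3 was higher in mutants by 0.41 (adjusted p = 0.0145) and Id1 by 0.38 (adjusted p = 0.0231, limma). They were the only genes of the 6 lists to pass in that comparison of 6 libraries, in which 5.15% of all genes passed.

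The Notch and arterial list had 2 of 12 genes with an unadjusted p under 0.05, beside 17.0% of all genes tested. Both were lower in mutants, beside 8.79% of all genes, and both had groups that did not overlap, beside 7.59% lower without overlap. Counts this small do not set the list apart from that background. Hey1, a transcriptional repressor induced by Notch, measured 17.2, 13.7 and 19.3 FPKM in wild-type samples and 12.2, 12.2, 13.2 and 11.6 in the mutants. Gja5, which encodes the arterial gap junction protein connexin 40, measured 8.33, 7.25 and 8.53 against 6.12, 6.53, 6.35 and 6.99. Neither passed after adjustment over all genes: the difference was -0.42 ± 0.11 for Hey1 (adjusted p = 0.18) and -0.28 ± 0.09 for Gja5 (adjusted p = 0.192, limma). Jag1, a Notch ligand the gene with the highest level there, measured 14.6 ± 2.29 FPKM (SD, n = 3) in wild-type and 15.0 ± 1.05 (SD, n = 4) in mutant libraries, and Sox17, the arterial factor among the 10 genes, had overlapping groups.

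Of 7 venous and lymphatic genes 4 were tested, since Lyve1, Prox1 and Ccl21a, which mark lymphatic endothelium, were under the filter. Pdpn, a mucin-type glycoprotein of lymphatic endothelium that other cells also carry, measured 40.3, 43.0 and 41.6 FPKM in wild-type samples and 52.6, 49.6, 46.2 and 44.6 in the mutants. Its groups did not overlap (0.21 ± 0.07; adjusted p = 0.213, limma). Ephb4, a receptor of venous endothelium, measured 32.1 ± 4.25 and 32.4 ± 1.42 FPKM (SD, n = 3 and n = 4).

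Of 12 endothelial transcription factors 11 were tested and 0 had an unadjusted p under 0.05; Etv2, which acts early in the making of endothelium, was under the filter. Ets1 was the most abundant at 56.8 ± 9.11 FPKM (SD, n = 3) in wild-type and 55.4 ± 6.05 (SD, n = 4) in mutant libraries, and Lmo2 measured 13.3 ± 2.18 and 14.3 ± 2.70.

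The list of 20 other surface and junction genes had 2 with an unadjusted p under 0.05, in opposite directions, beside 17.0% of all genes tested. Jam2, a junctional adhesion molecule, measured 11.0, 15.0 and 11.3 FPKM in wild-type samples and 16.5, 15.6, 14.9 and 16.0 in the mutants (0.34 ± 0.11; adjusted p = 0.204, limma). Vwf, which encodes von Willebrand factor, measured 2.71, 2.96 and 3.46 against 1.71, 1.3, 1.98 and 3.13 (-0.53 ± 0.22; adjusted p = 0.273, limma). The groups overlapped for both, through the library labelled wild-type 2 and mutant 3 for Jam2 and through mutant 4 for Vwf. Myct1 had groups that did not overlap (2.37 ± 0.23 and 1.95 ± 0.212 FPKM, SD; adjusted p = 0.337, limma), and Egfl7 and Cd34 had the highest levels, at 55.5 ± 6.26 and 62.7 ± 4.66 FPKM and at 31.8 ± 3.01 and 33.2 ± 1.72 FPKM.

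**Figure D5:**
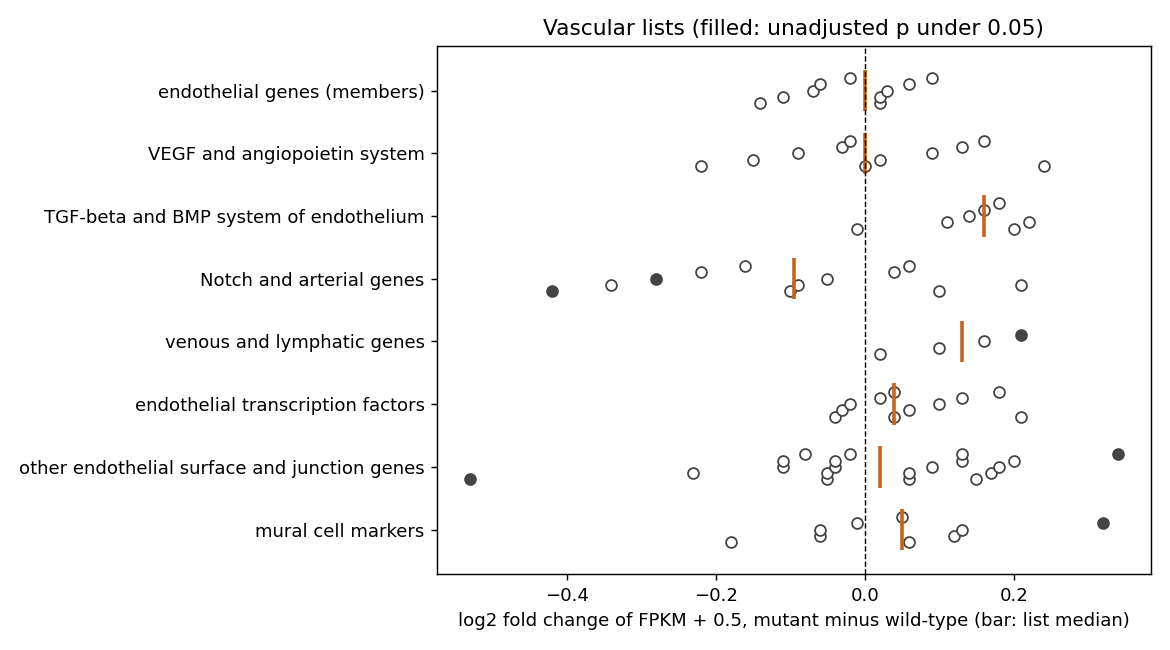
Log2 fold change of FPKM + 0.5 (mutant minus wild-type, horizontal axis) of each tested gene in the endothelial, 6 vascular and mural lists; filled points had an unadjusted p under 0.05 and bars are list medians. None of the 10 endothelial genes is filled, and 5 genes of the vascular lists are (Hey1, Gja5, Vwf, Jam2 and Pdpn).

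Marker lists of other cells give the composition against which these values stand, in summed FPKM and with 0 genes past the threshold in any list (limma). Their counts at an unadjusted p under 0.05 stand beside 8.21% of all genes for higher and 8.79% for lower in mutants. Mural cell markers, which mark the pericytes and smooth muscle around vessels, summed to 148 to 174 in wild-type and 163 to 191 in mutant libraries, with 1 of 9 at an unadjusted p under 0.05 (Acta2, higher in mutants). Fetal Leydig cell markers summed to 1660 to 2730 and 2590 to 3160, with 6 of 7 higher at an unadjusted p under 0.05, among them Insl3, Cyp11a1, Star and Nr5a1. Sertoli cell markers summed to 1030 to 1300 and 1250 to 1430 (1 of 8 higher, Cst9) and macrophage markers to 34.6 to 41.3 and 41.1 to 53.3 (1 of 8 higher, C1qb). Among platelet and leukocyte markers, 1 of 8 was lower (Ppbp) and 3 higher (Gp1bb, Spi1 and Coro1a) at an unadjusted p under 0.05. These markers summed to 25.6 to 35.9 and 28.6 to 37.2. Gp1bb and Spi1 lay near the filter of 0.5 FPKM, with wild-type means of 0.413 and 0.501 FPKM. Red blood cell markers varied from 3050 to 5100 and from 1670 to 4480, with 0 of 9 at an unadjusted p under 0.05. Of the markers taken for tissue outside the testis, those of the mesonephros were low in sum and those of skeletal muscle were uneven among libraries. Mesonephric markers summed to 8.16 to 11.0 and 7.78 to 9.77, with Pax2, Cdh16 and Gata3 under the filter. Emx2 alone gave 6.02 to 8.56 and 5.86 to 7.47, so that the sum rests mainly on 1 gene. Lhx1 was lower in mutants at an unadjusted p under 0.05, but the paper also names it among genes of undifferentiated spermatogonia. Its level is therefore not particular to the mesonephros. Skeletal muscle markers summed to 3.40 to 23.7 and 3.12 to 40.8, highest in the library labelled wild-type 1 and in mutant 4. Without the library labelled wild-type 3, 5 of 6 germ cell markers passed as lower (limma), beside 560 of 14019 genes tested in that fit. Nr5a1 of the Leydig list and Ptgds of the Sertoli list passed as higher, beside 162. That library was singled out by its low Glis3 level and its low germ cell marker sum. Its removal thus raises the wild-type mean of that sum by choice. The germ cell calls without it are therefore no separate evidence. The part of these cells in the levels of the endothelial genes was not tested.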

How the data were processed

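Whole testes were sequenced as unstranded, random-primed total RNA. Reads were filtered on base quality and mapped to mm10 by the authors with TopHat2 (version 2.0.12 in the submitters' processing notes) who deposited FPKM per RefSeq gene from Cuffquant and Cuffnorm, scaled by that workflow. They also deposited raw counts of uniquely mapped reads per RepeatMasker element from HTSeq-count. The header of both tables lacks a tab between the third wild-type and the first mutant column, which were read as separate columns. No per-sample column was left out (0). The number of fragments behind an FPKM value is not in the table, so counting depth per gene is unknown there.

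Genes whose mean reached 0.5 FPKM entered limma 3.58.1 as log2(FPKM + 0.5) (eBayes with a trend, two-sided, Benjamini-Hochberg over all genes tested, threshold 0.05) in R 4.3.3. Fold changes on that scale understate those of low genes. Of the rows, 834 carry a symbol that occurs more than once; where a list symbol did so, the row with the highest mean was used. Cuffdiff, the authors' test, was not run. Counts of elements inside 1 gene span and outside GENCODE M21 exons (bedtools 2.31.1) were summed per gene and tested with edgeR 4.0.16 (quasi-likelihood, TMM, a mean of at least 10 reads); DESeq2 1.42.0 was an alternative. Without strand, reads of an overlapping antisense transcript cannot be told apart. Single values were compared by exact permutation with scipy 1.17.1 in Python 3.11.15. On simulated data with 200 changed genes, limma recovered 182 with 9 false calls (13988 genes) and edgeR 193 with 8 (11111 genes). The planted changes were much larger than any difference estimated for the 10 genes. The recovery thus checks the code and does not give the power to detect small differences.

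Groups follow the sample labels, and each library is a separate embryo. The 10 genes and all lists were chosen with earlier results of these data known. Genes named were the 10 members, Glis3, in each list up to 4 genes with an unadjusted p under 0.05 or groups that do not overlap and the 2 of highest level, and the 8 nearest profiles; for the lists of other cells only some of these are named. Alternatives were pseudocounts of 0.1 and 1, other filters and scalings, no trend, array weights, a replicate block and leaving out each library.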

Additional observations from a re-analysis of the deposited data

Results flagged for a closer look

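In the group of 4 mutants, 4 of 67 genes examined had 1 library far from the others by Dixon's criterion, where chance gives about 5%. Tie1 was one of them, at 10.4 FPKM in mutant 1, with the next library at 8.54 FPKM. The others were Ephb4 in mutant 2 (34.5 FPKM, next 31.8), Aard in mutant 3 (244 FPKM, next 184) and Star in mutant 2 (157 FPKM, next 192). No cause was tested.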

How the results depend on the processing

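None of the 10 endothelial genes passed the threshold in FPKM, and none of those tested in introns, under any alternative run. Their median stayed between -0.086 and 0.023 in FPKM. In introns it stayed between -0.14 and 0.023. The lowest adjusted p of a member was 0.184 in FPKM (Emcn, limma, without the library labelled wild-type 3) and 0.268 in introns (Flt1, edgeR, without the library labelled wild-type 2). The sign was less stable: 6 of 10 genes in FPKM and 5 of 7 in introns changed sign under at least 1 alternative.

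Counts over all genes moved more. In FPKM 1 gene passed, against 4 with no filter, 3 with quantile normalization and 1 to 722 when single libraries were left out, the highest without the library labelled wild-type 3; 2 passed after removal of mutant 3 or of the library labelled wild-type 1, and 5 after removal of the library labelled wild-type 2. In introns 28 passed, against 88 with no filter, 2 with a mean of at least 50 reads, 1 with all elements inside the gene span and 1 to 116 with single libraries left out. The count was highest without the library labelled wild-type 3 and 1 without the library labelled wild-type 1, mutant 1 or mutant 4, 7 without mutant 2 and 11 without mutant 3. DESeq2 passed 39. With a replicate block, 0 genes passed in FPKM and 4 in introns. The deviations of libraries with equal replicate numbers correlated from -0.18 to 0.23 over 3 pairs, and those with unequal numbers from -0.30 to 0.17. So few pairs cannot settle whether equal numbers pair the libraries. The cause of these shifts was not tested. The two-sided exact test cannot fall below 0.0571 with all libraries, 0.133 without 1 wild-type library or 0.1 without 1 mutant, so it bears on no call.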
